A study of Homo sapiens with 2 samples.

Results

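Nuclear genes for respiratory complexes II to V were compared between 1 library of cells carrying a control short hairpin RNA (shCtrl) and 1 library in which ZEB1 was knocked down (shZEB1). ZEB1 is a zinc-finger factor that represses epithelial genes. Both libraries were labelled as MDA-MB-231, a line from a human triple-negative breast carcinoma, and no other allele, agent, time point, vector or hairpin sequence is named for them in the labels. RNA was selected by poly(A) and sequenced on a DNA nanoball platform. With no replicate of either group, every difference is between 2 libraries, and none carries a p-value. Members were all protein-coding genes whose symbol begins with SDH, UQCR, COX followed by a number, or ATP5, plus CYC1, CYCS, SURF1, SCO1 and SCO2, with pseudogenes and read-through genes left out. They came to 61 of the 16085 genes and loci in the tables, and 60 of the 61 were measured, meaning an FPKM of at least 1 in either library. FPKM is the number of fragments scaled to gene length and library size.

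The respiratory chain passes electrons from succinate (complex II) and from NADH (complex I) through ubiquinone to complex III, then by cytochrome c to complex IV, which reduces oxygen. Complexes III and IV pump protons across the inner mitochondrial membrane, and complex V, the ATP synthase, uses the returning protons to make ATP. Apart from complex II, these complexes hold a few subunits made inside the mitochondrion and many more imported from nuclear genes, and dedicated assembly factors insert heme, copper, flavin and iron-sulfur centres.

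The libraries held 8740584 reads (shCtrl) and 8441491 reads (shZEB1). ZEB1 itself fell from 46 reads (0.88 FPKM) in shCtrl to 15 reads (0.31 FPKM) in shZEB1. Both levels were under the minimum of 1 FPKM, so ZEB1 did not count as measured, even in shCtrl. The ratio of its reads, scaled to the library totals, was 0.338. The exact binomial interval of that ratio, for counting error only, was 0.175 to 0.616. The markers went in part against the breast line label. All 10 melanocyte lineage genes examined were abundant in each library, at 18.8 to 703 FPKM, and they summed to 1861 FPKM in shCtrl and 1398 in shZEB1. PMEL (703 and 405 FPKM) and DCT (225 and 123) made up most of that difference, while SOX10 (175 and 171) and MITF (55.1 and 52.2) were close and TYRP1, GPR143 and SLC45A2 had log2 ratios of 0.03 to 0.26. Of 10 basal-type breast line genes 8 were measured, and 6 had at least 10 FPKM in both libraries, CD44 (147 and 134) among them. EGFR had 0.52 and 0.65 FPKM, KRT7 0.74 and 1.67, F3 0.87 and 1.82, and KRT19 had no entry. Macrophage markers were scarce: PTPRC, CD163 and TYROBP had no entry, CD14 and CSF1R had at most 3 reads, and LYZ had 2.25 and 4.47. The part of the lower melanocyte sum in the results on respiratory genes was not tested.

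Most of these genes had nearly the same level in both libraries. The median log2 ratio of FPKM (shZEB1 over shCtrl, with 1 added to each value) was -0.01 over the 60 measured members, against 0.02 over all 12274 measured genes and loci. A call of higher or lower needed a log2 ratio of at least 0.32 in size (the same factor in both directions) and a 95% exact binomial interval of the read ratio that excluded 1. The read ratio is scaled to the library totals, and its interval covers counting error only. In bulk RNA, fewer cells with a transcript and less of it per cell cannot be told apart. By this rule 3 members were higher, a share of 5.0% against 15.4% of all measured genes, and 5 were lower, a share of 8.33% against 13.1%. At 2-fold, 1 member was higher (0.937% of all measured genes) and 2 were lower (1.61% of all). The interval alone excluded 1 for 27 of 60 members, 13 higher and 14 lower, against 49.3% of all measured genes (27.9% higher and 21.4% lower). Complex I subunits, the neighbouring part of the chain, had a median of -0.01 over 37 genes with 0 higher and 2 lower (NDUFA6 and NDUFA7). Cytosolic ribosomal protein genes, another set of abundant short transcripts, had 0.02 over 83 genes with 0 higher and 1 lower (RPL22L1).

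**Figure D1:**
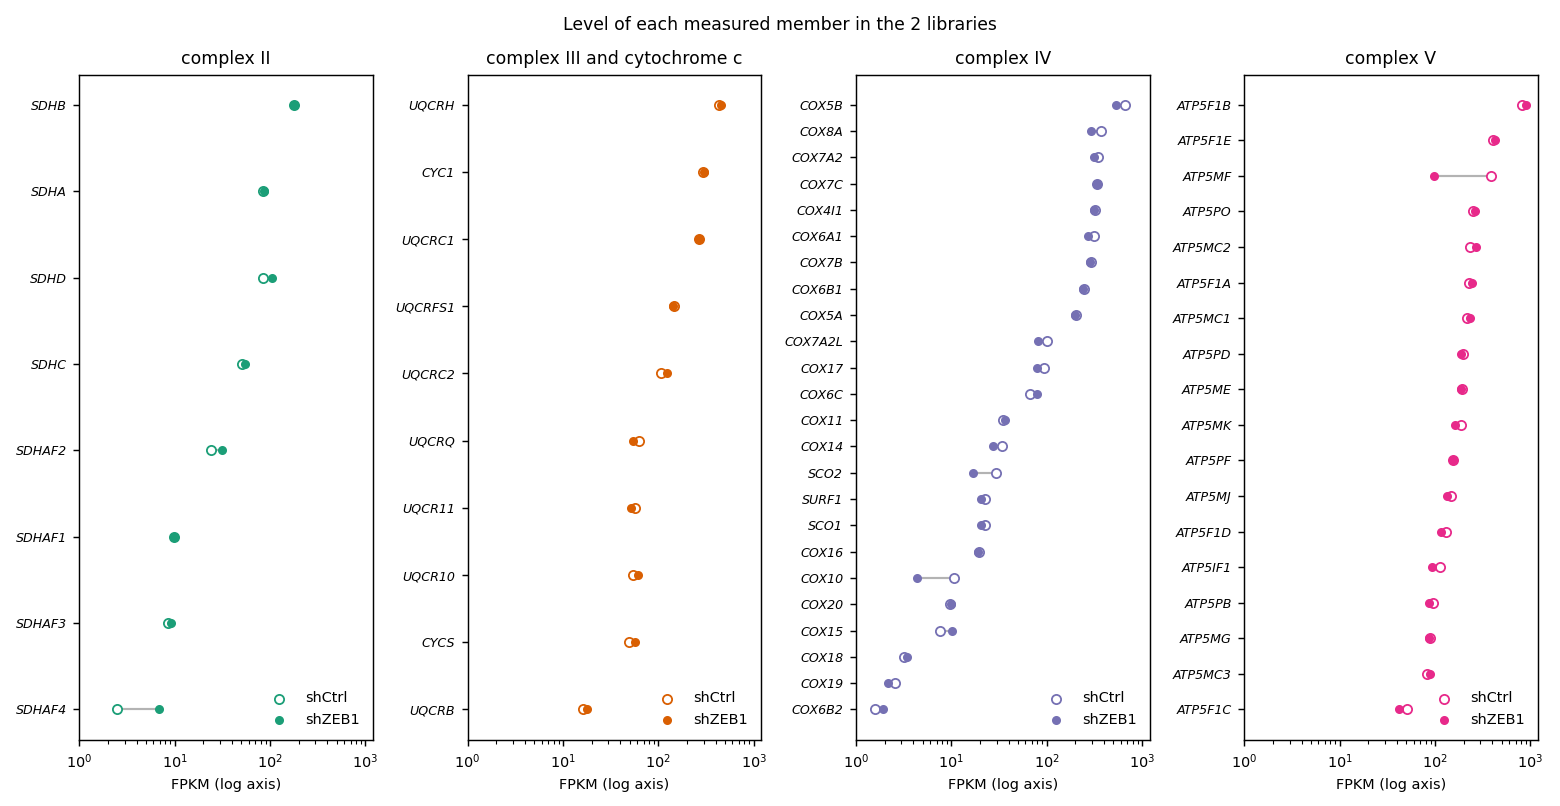
FPKM (log axis) of each measured member in shCtrl (open circles) and shZEB1 (filled circles), ordered within each complex by the shCtrl level, with a grey line joining the pair. Most pairs of circles touch, while ATP5MF, COX10, SCO2 and SDHAF4 are visibly apart.

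The calls fell as follows over roles. Of 17 assembly factors, 3 were higher (SDHAF2, SDHAF4 and COX15) and 3 lower (COX10, SCO2 and COX7A2L), 17.6% in each direction, near the 15.4% and 13.1% of all measured genes. Of 40 measured structural subunits, cytochrome c included, 0 were higher and 2 were lower (COX8A and ATP5MF), the latter a share of 5.0%. None of the 3 inhibitor and accessory members of complex V was called. Assembly factors were the scarcer genes, at 2.15 to 102 FPKM, against 1.59 to 892 FPKM for the structural subunits, so their ratios rest on fewer reads. COX7A2L, at -0.33, and COX8A, at -0.35, lay just inside the limit on this log2 scale, and SDHD, at 0.31, just outside it; with TPM, SDHD was called higher.

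Complex II oxidises succinate and is the only complex here with no subunit made in the mitochondrion. SDHA, the flavoprotein subunit, had 2047 reads in shCtrl and 1998 in shZEB1, which came to 85.2 and 85.9 FPKM (85.25 and 85.92). SDHB, the iron-sulfur subunit, had 178.3 and 179.99 FPKM, the highest level of the 4 subunits. Both catalytic subunits were therefore level between the libraries. The membrane anchors hold the heme and the ubiquinone site. SDHC had 51.5 and 54.8 FPKM, with an interval of the read ratio of 0.988 to 1.16 that included 1. SDHD had 84.9 and 105 FPKM, from 990 and 1193 reads, and its read ratio of 1.248 (interval 1.15 to 1.36) excluded 1. Exons of SDHD overlap AP002884.3 on the same strand and TIMM8B on the opposite one, and since the strand setting of the counting was not given, their reads cannot be told apart here. TIMM8B, an import chaperone, had 247 and 191 reads, and the 2 genes summed gave a read ratio of 1.16 (interval 1.07 to 1.252).

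SDHA also has close copies in the genome, and 5 loci assembled by the authors carried a deposited description naming this flavoprotein. They held 74.96 reads in shCtrl and 122 in shZEB1 in all. Adding them to SDHA gave a read ratio of 1.03 (interval 0.974 to 1.10), so the interval included 1 with or without the copies.

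The complex II assembly factors differed more. SDHAF4, which binds the flavin-loaded SDHA and helps it join SDHB, had 10 reads in shCtrl and 27 in shZEB1. Its FPKM was 2.47 and 6.78, a log2 ratio of 1.16, and the read ratio of 2.796 had a wide interval of 1.31 to 6.47. SDHAF2, which helps attach flavin to SDHA, had 23.8 and 31.4 FPKM from 243 and 311 reads, with a read ratio of 1.33 (interval 1.12 to 1.57); its exons overlap AP003108.2 on the same strand. SDHAF1 and SDHAF3, which protect SDHB while its iron-sulfur centres are inserted, were level at 9.79 and 9.74 FPKM and at 8.62 and 9.18 FPKM. Over all 8 genes of complex II the median log2 ratio was 0.09, with 7 above 0 (53.1% of all measured genes were above 0). Of the 7, SDHA and SDHB were barely so, at 0.011 and 0.014, below the median of all measured genes (0.024). With edgeR factors they were at -0.04 and -0.03, where the median of all measured genes was -0.01, so the count of 7 depends on the scaling. The summed reads gave a ratio of 1.07 (interval 1.04 to 1.11), which, like the other summed ratios, holds for scaling to library totals only.

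The promoter of SDHAF4 is shown because SDHAF4 had the highest ratio of all members. The window runs from 250 bases before to 50 after the RefSeq start, at chr6:70566680-70566979 on the plus strand of GRCh38.p14. Sequence and coordinates are from RefSeq. Capitals mark a match, on the opposite strand, to the binding motif of NRF1, a nuclear respiratory factor, with 1 base left free. The full NRF1 motif is the run of capitals in the ATP5F1C site further on.
SDHAF4: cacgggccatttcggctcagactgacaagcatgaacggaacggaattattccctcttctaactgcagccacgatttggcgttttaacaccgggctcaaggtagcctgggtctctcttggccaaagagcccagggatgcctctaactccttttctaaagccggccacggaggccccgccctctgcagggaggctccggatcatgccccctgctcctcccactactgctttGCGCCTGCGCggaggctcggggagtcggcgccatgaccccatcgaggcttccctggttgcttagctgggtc

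Complex III, which moves electrons from ubiquinol to cytochrome c, had 0 of its 9 subunits called higher or lower. UQCRH, the hinge protein that docks cytochrome c, was the most abundant, at 434 FPKM in shCtrl and 459 in shZEB1, from 2158 and 2236 reads. The near-identical copy UQCRHL had no entry, so reads of the pair may all stand under UQCRH. CYC1, cytochrome c1, had 293 and 304 FPKM, UQCRC1, a core protein, 267 and 269, and UQCRFS1, the Rieske iron-sulfur protein, 145 and 144. UQCRC2, the other core protein, was at 107 and 122 FPKM, and its read ratio of 1.15 (interval 1.08 to 1.22) excluded 1. UQCRQ, a small subunit near the ubiquinone site, lay the other way at 63.4 and 53.9 FPKM (read ratio 0.854, interval 0.772 to 0.945). UQCRB had the lowest level of the 9, at 16.4 and 17.7 FPKM, and UQCR10 and UQCR11 lay between 52.4 and 60.9 FPKM. The highest FPKM among the 9 subunits was 26.5 times the lowest in shCtrl and 25.97 times in shZEB1, although the complex holds them in equal numbers.

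CYCS, the soluble carrier cytochrome c that also triggers caspase activation when released, had 49.4 FPKM in shCtrl and 57.4 in shZEB1. These rested on 2372 and 2669 reads, and the read ratio was 1.17 (interval 1.10 to 1.23). Its log2 ratio of 0.21 was below the limit for a call. Over complex III and CYCS together the median log2 ratio was 0.07, and summed reads gave 1.06 (interval 1.03 to 1.08).

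Complex IV, cytochrome c oxidase, lay lower in shZEB1 for 17 of its 24 measured members, with a median log2 ratio of -0.09. That was a share of 70.8%, against 46.7% of all measured genes. Genes of like length were nearer: the members of the complex had a median model length of 965 bases. Of all measured genes of 700 to 1200 bases, 63.2% were below 0, with a median of -0.10. Of those of 200 to 700 bases, 58.0% were below 0, with a median of -0.06. Summed reads of the complex gave a ratio of 0.925 (interval 0.906 to 0.944), and the median stayed below 0 in each scaling tried. COX5B, a zinc-binding subunit and the most abundant gene of the complex, had 662.5 FPKM in shCtrl and 539.9 in shZEB1, from 2669 and 2136 reads (read ratio 0.829, interval 0.782 to 0.878). COX8A, the smallest subunit, had 372 and 292 FPKM from 1492 and 1150 reads, and its read ratio of 0.798 (interval 0.738 to 0.862) made it the only structural subunit of the complex called lower. With TPM its log2 ratio was -0.30 and the call was lost, and with edgeR factors COX5B was called lower as well. Exons of COX8A overlap AP000721.1 on the same strand. COX6A1 (315 and 272 FPKM) and COX7A2 (344 and 312 FPKM) also had intervals below 1.

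Other subunits of complex IV were level. COX4I1, the regulatory subunit and the first to join the core protein COX1, had 324 and 313 FPKM (interval 0.918 to 1.04). COX5A had 201 and 198 FPKM, COX6B1 246 and 242, COX7B 290.5 and 282, and COX7C 336 and 337. COX6C was the only structural subunit of the complex with an interval above 1, at 66.4 and 79.2 FPKM from 499 and 580 reads (read ratio 1.204, interval 1.07 to 1.36). It also had the lowest level of the constitutive subunits.

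Several complex IV subunits have a tissue form in muscle, testis or lung that replaces the common form. Among these, COX6B2, a testis form, had 1.59 and 1.91 FPKM from 22.5 and 26.3 reads. COX7A1, a muscle form, had no entry in shCtrl and 2 reads in shZEB1, and was the only member under the FPKM minimum. COX4I2, COX6A2, COX7B2 and COX8C had no entry in either table. Both libraries held the common forms COX4I1, COX6A1, COX7A2, COX7B and COX8A at 272 to 372 FPKM.

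Assembly of complex IV needs heme A, which is made in 2 steps, and the genes of those steps went opposite ways. COX10, which adds a farnesyl tail to heme to give heme O, had 10.7 FPKM from 276 reads in shCtrl and 4.39 FPKM from 110 reads in shZEB1. It was 2.43-fold lower, with a read ratio of 0.413 (interval 0.328 to 0.517). COX10 spans chr17:14069504-14208677, its exons overlap no other gene in the annotation, and its model length was 3016 bases in both files. COX15, which converts heme O to heme A, had 7.64 FPKM from 511 reads in shCtrl and 10.1 FPKM from 646 reads in shZEB1, a read ratio of 1.31 (interval 1.16 to 1.47). COX15 shares exons with AL133353.2, an annotated neighbour on the same strand.

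The promoter of COX10 is shown as that of the only member at least 2-fold lower with no exon overlap. ATP5MF, the other member at least 2-fold lower, had no promoter window to show. The COX10 window covers chr17:14069254-14069553 on the plus strand of GRCh38.p14, again 250 bases before to 50 after the start. Sequence and coordinates are from RefSeq. Capitals mark 2 matches to CCGGAAG, the ETS motif bound by GABPA, which is also named nuclear respiratory factor 2. The last run of capitals, after the start, is a match to the YY1 motif. The ZEB1 E-box CACCTG was not found on either strand of this window.
COX10: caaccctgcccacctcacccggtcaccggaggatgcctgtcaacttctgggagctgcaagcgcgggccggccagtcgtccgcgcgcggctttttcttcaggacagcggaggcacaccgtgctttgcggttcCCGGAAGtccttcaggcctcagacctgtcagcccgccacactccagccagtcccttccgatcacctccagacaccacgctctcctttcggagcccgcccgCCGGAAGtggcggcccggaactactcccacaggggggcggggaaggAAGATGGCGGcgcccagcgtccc

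Copper reaches complex IV through another set of factors. SCO2, which helps load copper into the subunit COX2, had 29.2 FPKM from 242 reads in shCtrl and 16.9 FPKM from 137 reads in shZEB1. Its read ratio was 0.585 (interval 0.472 to 0.726), so it was lower in shZEB1. SCO2 (chr22:50523568-50526442) overlaps TYMP, the thymidine phosphorylase gene, which had a read ratio of 0.813 with an interval of 0.613 to 1.07 that included 1. The pair summed gave 362 and 231 reads, a ratio of 0.661 (interval 0.558 to 0.781). SCO1, the paralog of SCO2, had 22.6 and 20.7 FPKM, with an interval of 0.784 to 1.08 that included 1. COX17, which hands copper to both, had 93.2 and 80.04 FPKM, and COX11, which serves the other copper site, 34.5 and 36.95, and both intervals included 1. COX19 had 2.60 and 2.15 FPKM.

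COX7A2L, which links complexes III and IV into supercomplexes, was the other lower factor. It had 102 FPKM in shCtrl and 80.6 in shZEB1, from 965 and 743 reads (read ratio 0.797, interval 0.724 to 0.878), and with TPM its log2 ratio was -0.28 and the call was lost. SURF1, mutated in a form of Leigh syndrome, had 22.6 and 20.5 FPKM from 194 and 172 reads (interval 0.743 to 1.13, across 1). COX14 had 33.9 and 27.7 FPKM, and COX16, COX18 and COX20, which act on the early subunits, had log2 ratios between -0.03 and 0.09. Of the 13 assembly factors of this complex, 9 had an interval that included 1.

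**Figure D2:**
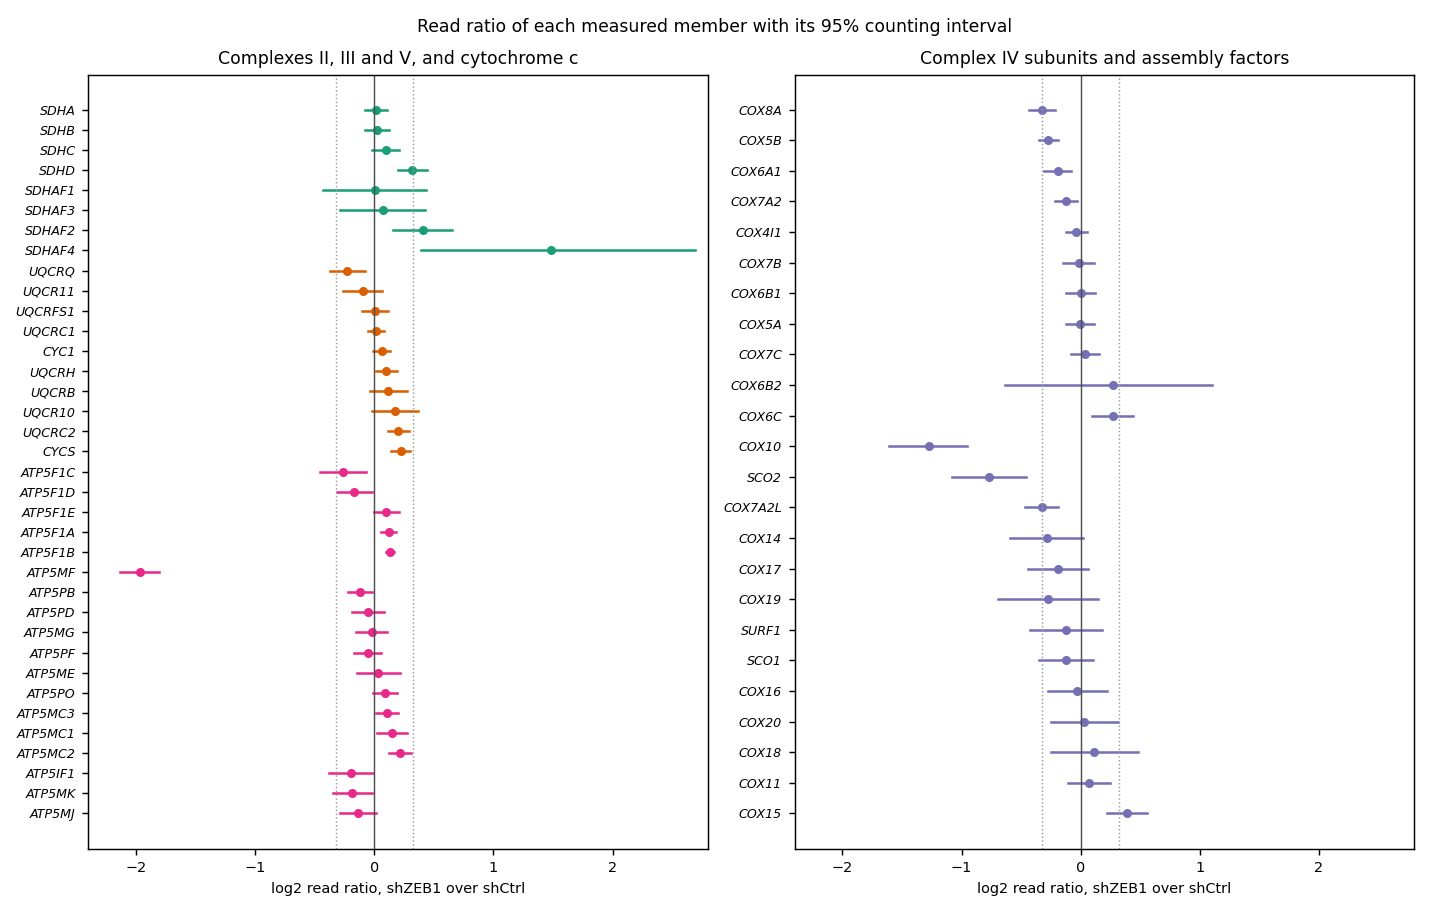
Read ratio (log2, shZEB1 over shCtrl, scaled to library totals) of each measured member, with bars for the 95% exact binomial interval, which covers counting error only. Dotted lines mark the limit of a call (0.32). ATP5MF and COX10 lie far to the left, SDHAF4 to the right with a wide interval from 10 and 27 reads, and most other members lie between the dotted lines.

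Complex V makes ATP in its catalytic head, F1, which is driven by a ring of c subunits in the membrane part, Fo. ATP5F1B, the catalytic beta subunit, was the most abundant member of all, at 819 FPKM in shCtrl and 892 in shZEB1, from 12881 and 13610 reads. That depth gave a read ratio of 1.09 with a narrow interval of 1.07 to 1.12. ATP5F1A, the alpha subunit, had 227 and 246 FPKM, and ATP5F1E, the epsilon subunit, 408 and 429.95. ATP5F1C, the rotating gamma subunit, was the scarcest member of complex V, at 51.35 FPKM from 493 reads and 42.4 FPKM from 397 reads. Its read ratio was 0.834 (interval 0.729 to 0.954), and that of ATP5F1D, the delta subunit, was 0.892 (interval 0.806 to 0.986). So alpha and beta lay slightly higher and gamma and delta slightly lower in shZEB1, all short of the limit for a call.

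The c ring is encoded by ATP5MC1, ATP5MC2 and ATP5MC3, whose precursors differ in their import sequence and yield the same mature protein. ATP5MC2 had 235 and 271 FPKM, ATP5MC1 214 and 235, and ATP5MC3 83.2 and 89.3. Their read ratios of 1.16, 1.11 and 1.08 each had an interval above 1. Together they held 533 FPKM in shCtrl and 595 in shZEB1 (summed read ratio 1.12, interval 1.07 to 1.16). The shares were close in both libraries: ATP5MC2 supplied 44.1% and 45.5% of the summed FPKM, and ATP5MC3 15.6% and 15.01%.

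ATP5MF, the f subunit of Fo, had by far the greatest difference among members. It had 385 FPKM from 1515 reads in shCtrl and 97.2 FPKM from 374 reads in shZEB1, and so was 3.96-fold lower. The read ratio was 0.256 (interval 0.228 to 0.286). Of the 18 genes of complex V, 2 had a higher FPKM than ATP5MF in shCtrl (ATP5F1B and ATP5F1E) and 12 in shZEB1. Of 750 genes with at least 100 FPKM in shCtrl, 17 were at least 2-fold lower, and only IFI6, an interferon-stimulated gene (165 and 26.7 FPKM), had a log2 ratio below that of ATP5MF.

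ATP5MF (chr7:99458195-99466167) shares exons with the read-through gene ATP5MF-PTCD1, so the division of reads was checked. The read-through model had 122 reads in shCtrl and 140 in shZEB1, a gain of 18.2 reads with an interval of 0.925 to 1.53 that included 1. Reads under ATP5MF fell by 1141. Added together they gave 1637 and 514 reads, a ratio of 0.325 (interval 0.294 to 0.359). PTCD1, the downstream partner, had 729.8 and 639.6 reads. Summing all 3 models gave 2367 and 1154 reads, a ratio of 0.505 (interval 0.470 to 0.542). In shCtrl, 4 annotated transcripts were listed under ATP5MF, and its model length was 512 bases in shCtrl and 510.3 in shZEB1. The read-through model included 3 transcripts assembled by the authors in shCtrl. Its length was 3324 bases in shCtrl and 5903 in shZEB1. The transcripts listed in shZEB1 were not compared. The reads missing from ATP5MF thus did not reappear under either overlapping model, and where else they may have been assigned was not tested.

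**Figure D3:**
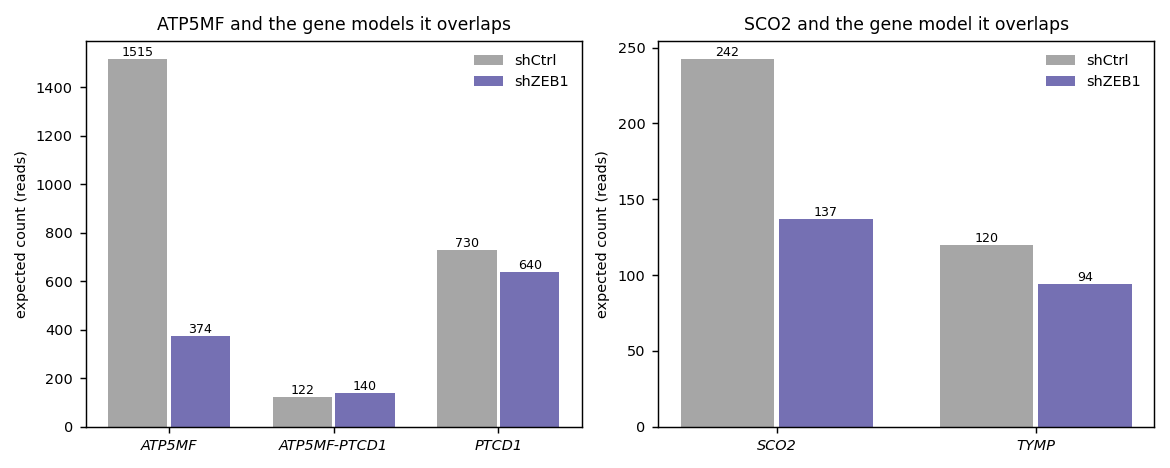
Expected counts in shCtrl (grey) and shZEB1 (purple) of ATP5MF, its read-through model ATP5MF-PTCD1 and PTCD1 (left), and of SCO2 and the overlapping gene TYMP (right). ATP5MF falls from 1515 to 374 reads with 122 and 140 reads under the read-through model, and SCO2 falls from 242 to 137 reads beside 119.6 and 93.95 reads of TYMP.

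No other subunit of Fo or the stalk was called in either direction. ATP5ME, ATP5MG and ATP5PD (the e, g and d subunits) had 190.3 and 189.7, 87.75 and 85.9, and 196 and 186 FPKM. ATP5PF, the coupling factor 6, had 156 and 154, ATP5PO, the stalk protein OSCP, 249 and 262, and ATP5PB, the b subunit, 95.2 and 87.35. Of these, only ATP5PB had an interval that excluded 1 (0.859 to 0.988). The accessory proteins were all on the lower side. ATP5IF1, which blocks ATP hydrolysis when the membrane potential falls, had 112.5 and 92.01 FPKM with an interval of 0.771 to 0.995. ATP5MK had 187 and 162 FPKM and an interval of 0.786 to 0.985, while that of ATP5MJ (147 and 133 FPKM) reached 1.01. Over complex V the median log2 ratio was -0.02, and it was 0.03 when FPKM was rescaled to TPM. Summed reads gave 1.02 (interval 1.00 to 1.03), and 1.05 (interval 1.03 to 1.07) without ATP5MF.

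Gene length moved with the ratio, in these genes and in all others. Across the 60 members Spearman's rho between gene model length and log2 ratio was 0.35 (0.33 without ATP5MF), and across all 12274 measured genes it was 0.22. These are correlations across genes of the same 2 libraries, which share depth and processing. The 17 members of 200 to 700 bases had a median of -0.07, against -0.06 for the 379 measured genes of that length. For 700 to 1200 bases the medians were -0.04 (16 members) and -0.10 (905 genes), for 1200 to 2000 bases they were 0.05 (15 members) and -0.05 (2098 genes), on opposite sides of 0, and for 2000 to 4000 bases 0.04 (7 members) and 0.01 (4857 genes). For over 4000 bases they were 0.11 (5 members) and 0.11 (4035 genes). Complex IV members had a median length of 965 bases, complex V members 810.4, complex II members 1310.5 and complex III members with CYCS 1460. The part of length in the differences between complexes was not tested. COX10, at 3016 bases, was 2.43-fold lower. The log2 ratios of all measured genes in its length class (2000 to 4000 bases) ran from -3.39 to 2.30, with a median of 0.01. The part of length in the COX10 ratio was not tested.

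**Figure D4:**
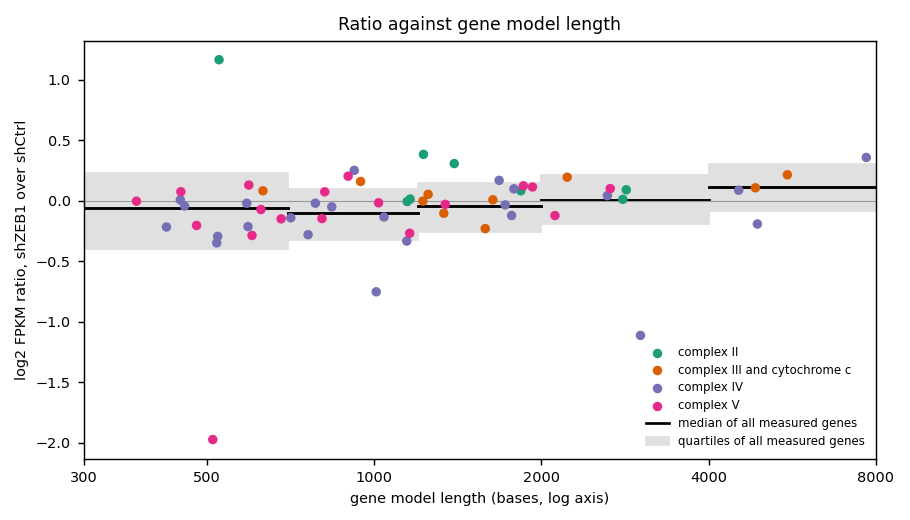
Log2 FPKM ratio (shZEB1 over shCtrl, with 1 added) against gene model length (log axis) for the measured members, coloured by complex. Black lines and grey bands give the median and quartiles of all measured genes in 5 length classes. The medians of all genes are -0.06 in the shortest class, -0.10 in the next and 0.11 in the longest, and ATP5MF, COX10, SCO2 and SDHAF4 lie farthest outside the bands.

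Promoters of respiratory genes are known for sites of NRF1 and of the ETS factor GABPA. RefSeq windows of 300 bases were held for 50 of the 61 members. The other 11, ATP5MF and SCO2 among them, had no window, so the shares and medians by motif leave them out. An ETS match (CCGGAAG) was in 22 of the 50 windows, a share of 44.0%, against 20.5% of the 9546 measured genes with a window and 10.7% of all 27305. The full NRF1 motif was in 8.0% of members, 2.41% of measured genes and 1.36% of all, and the form with 1 base left free, which takes in the full one, in 28.0%, 12.3% and 6.28%. The YY1 motif was in 8.0%, 3.07% and 1.28%. The ZEB1 E-box CACCTG was in 20.0% of members, 17.2% of measured genes and 20.6% of all, so its share in members was near both backgrounds. All motifs were searched on both strands, and no overlap between different motifs was removed. The median GC content was 62.5% in member windows, 65.7% in those of measured genes and 58.3% in all.

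**Figure D5:**
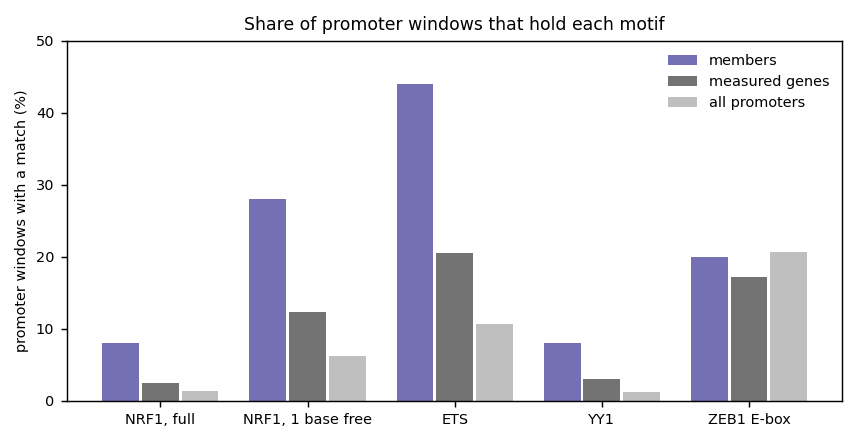
Share (%) of 300-base promoter windows with at least 1 match to each motif among members (purple, 50 windows), measured genes (dark grey, 9546) and all promoters (light grey, 27305). The ETS bar is 44.0% for members against 20.5% for measured genes, and the ZEB1 E-box bars are 20.0%, 17.2% and 20.6%.

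The 4 sites with the full NRF1 motif are printed because their genes had log2 ratios on both sides of 0: -0.27 for ATP5F1C, -0.22 for COX17, 0.09 for COX18 and 0.31 for SDHD. Capitals mark the motif.
ATP5F1C: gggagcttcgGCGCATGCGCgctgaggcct
COX17: gggcctccttGCGCATGCGCtgaagggggc
COX18: gcaggcaggcGCGCATGCGCtttatgcccg
SDHD: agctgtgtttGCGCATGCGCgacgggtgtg

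SDHA carried 4 NRF1 matches of the looser form, spaced by 49 bases. They are printed to show their flanks, from the farthest to the nearest to the start.
SDHA: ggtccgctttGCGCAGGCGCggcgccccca
SDHA: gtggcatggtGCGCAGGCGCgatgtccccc
SDHA: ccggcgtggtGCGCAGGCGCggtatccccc
SDHA: ccggtgtggtGCGCAGGCGCagtctgcgca

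ETS sites near the start of complex IV genes are printed in the orientation of the gene, with the match in capitals (CTTCCGG is the same motif on the other strand). Those printed are a selection, from a gene called lower (COX8A), genes with no call (COX4I1, COX6B1) and one called higher (COX15). Matches not printed here lay in COX10 (log2 ratio -1.11, called lower), COX5B (-0.29), COX17 (-0.22), COX6A1 (-0.21), SURF1 (-0.13) and SCO1 (-0.12). Of the complex IV genes with a match, only COX15 was above 0, while 17 of all 24 measured members of the complex were below 0.
COX4I1: gccttgctctCTTCCGGtcgcgggaca
COX6B1: cctctctcagCTTCCGGctggtagtag
COX8A: agctccagaaCTTCCGGccagcgcagc
COX15: gctgcccgacCCGGAAGtgcttctctt
The 22 members with an ETS match had a median log2 ratio of -0.06 and the 28 without one 0.01, and the 10 with a ZEB1 E-box had 0.00 against -0.03 for the 40 without. The matches are a description of the letters and say nothing of binding in these cells.

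Other known assembly factors of these complexes were examined as a list. All 35 assembly factors with an entry, of 36 listed, were measured, with a median log2 ratio of 0.01, 4 higher and 5 lower. These shares of 11.4% and 14.3% were near the 15.4% and 13.1% of all measured genes. UQCC1 and UQCC2, which act together on cytochrome b, were both higher (23.5 and 34.2 FPKM, and 24.6 and 36 FPKM). TIMM21 and LYRM7, a chaperone of the Rieske protein, were the other two higher genes, with log2 ratios of 0.37 and 0.33. FMC1, a factor for F1 assembly, was lower at 14.9 and 9.58 FPKM from 149.6 and 93.6 reads, which are not whole numbers, so part of its reads was divided with another model. UQCC5, UQCC4, COA4 and HCCS were also lower, with log2 ratios of -0.52, -0.50, -0.44 and -0.35; HCCS attaches heme to cytochromes c and c1.

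Regulators of mitochondrial biogenesis had a median of -0.05 over 17 measured genes, with 2 higher and 2 lower, 11.8% in each direction against the same 15.4% and 13.1%. PPARGC1A, the coactivator PGC-1alpha that drives these programmes, was lower, with 3.03 FPKM from 166 reads in shCtrl and 1.55 FPKM from 82 reads in shZEB1 (interval of the read ratio 0.388 to 0.670). Its relative PPARGC1B had 3.46 and 3.73 FPKM. GABPA, the factor of the ETS motif, was higher at 8.49 and 12 FPKM from 380 and 516 reads, though its exons overlap those of ATP5PF on the other strand. POLG2, a subunit of the mitochondrial DNA polymerase, was higher at 6.78 and 9.46 FPKM, and MYC lower at 88.0 and 66.7 FPKM. NRF1 itself had 6.70 and 6.08 FPKM and an interval of 0.753 to 1.13 that included 1.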

How the data were processed

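The submitters' processing notes name RSEM 1.2.8, HISAT2 2.1.0, Bowtie2 2.2.5, DESeq and the build hg38, without the role of each tool; strand and other settings were not found in the sources. Per the file headers, each gene has 3 deposited columns used here: the expected count (estimated reads), FPKM and the length of its model. Each table covers 1 library. Genes were matched to RefSeq symbols (GRCh38.p14) by Entrez identifier for 15183 of 15217 identifiers. A gene missing from 1 table was entered at 0. With 1 library per group no dispersion can be estimated, so no test was run. Intervals are exact conditional binomial (Clopper-Pearson) on expected counts rounded to whole numbers and scaled to library totals. The intervals cover counting error only, and leave out the spread between cultures and the error of dividing reads between models. Reads were not collapsed by molecular identifiers, so the intervals may be too narrow even for counting error. Intervals of summed genes treat their reads alike. The calling rule was also run on simulated counts, drawn from those of shCtrl with counting error alone. That run had no spread between cultures, so it cannot show how the calls fare against such spread. Exon overlaps come from GENCODE release 29. The members, lists and limits were chosen with earlier results of these data known. Genes given full values were those of each role with the highest level or the 3 largest absolute ratios, plus a fixed set, and the 3 largest absolute ratios of each other list; MYC, NRF1, PPARGC1B, the called genes of lists and comparison sets and some carriers were added after their values were seen. Mitochondrially encoded genes were not analysed here. Alternatives were another pseudocount (0.1), TPM, scaling by DESeq2 1.42.0 or by TMM in edgeR 4.0.16, other filters and other folds. Computation used Python 3.11.15, NumPy 2.4.6, SciPy 1.17.1 and R 4.3.3.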

Additional observations from a re-analysis of the deposited data

How the results depend on the processing

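No paired analysis was possible because each group has 1 library. Brackets give the share of all genes called in the same direction under the same setting. The count of higher members was 2 to 4 under the other pseudocount, scalings and filters (11.7% to 19.4%). It was 1 at 1.5-fold (4.98%), 1 at 2-fold (0.937%) and 1 among the 26 measured members with no exon overlap (15.4%). The count of lower members, 5, became 3 with TPM (11.7%), without COX8A and COX7A2L. It was 3 at 1.5-fold (5.41%) and 2 at 2-fold (1.61%). Among members with no exon overlap, COX10 and COX7A2L were the 2 lower ones (13.1%). The lower count was 7 with edgeR factors (16.8%) and 6 with DESeq2 factors (16.6%), so the share of all genes moved too. ATP5MF, COX10, SCO2, SDHAF2, SDHAF4 and COX15 were counted under every scaling. The median of complex V was -0.15 over its 6 members with no exon overlap, where fewer genes enter. The other medians ranged from 0.01 to 0.14 (complex II), 0.03 to 0.12 (III with CYCS), -0.13 to -0.04 (IV) and -0.09 to 0.03 (V). Without ATP5MF, an alternative chosen after seeing the data, 4 members were lower (13.1%) and the median of complex V was -0.02. Under the scalings, the median of all measured genes lay between -0.01 and 0.08. Ratios and intervals of summed reads were not recomputed under other scalings. The edgeR factors were 0.981 (shCtrl) and 1.02 (shZEB1) and would lower each read ratio, so small excesses over 1 in summed reads depend on the scaling. ATP5F1B had a log2 ratio of 0.12, and 0.18 with TPM, 0.07 with edgeR factors and 0.08 with DESeq2 factors. The alternative of adding UQCRHL reads to UQCRH was not run, since UQCRHL had no entry. Genes of few reads (SDHAF4, COX6B2, COX19) are limited by depth, and no interval covers the spread between cultures.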

Other observations

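Carriers that serve the ATP synthase were also nearly level. The 12 measured genes of nucleotide and phosphate transport had a median log2 ratio of 0.02. Of them 1 was called higher, a share of 8.33% against 15.4% of all measured genes. None was called lower, against 13.1% of all, and 12 genes are few for such shares. SLC25A5, the main ADP/ATP carrier here, had 374 FPKM in shCtrl and 385 in shZEB1, SLC25A6 162.8 and 162.7, and SLC25A3, the phosphate carrier, 303 and 326. VDAC3, an outer membrane channel, had 59.5 and 47.6 FPKM and a read ratio with an interval of 0.722 to 0.895, just short of the limit. CKMT1B, a mitochondrial creatine kinase, was the higher one at 5.61 and 7.56 FPKM. Its near-identical copy CKMT1A had 1.24 and 1.97 FPKM, and the division of reads between them is uncertain.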
